A study of Glycine max with 63 samples.

Results

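Soybean embryos of the R line at the time code T2 were compared with Wt embryos at the same code. The comparison used 6 of the 63 RNA sequencing libraries of the series, all 6 among its 36 greenhouse libraries. Members were taken by the names of the deposited tables, which code 3 libraries as R-T2 and 3 as Wt-T2. The sample titles put the same 3 and 3 libraries together, but call R-T2 line WD-2 at 30 days after pollination (DAP) and Wt-T2 the parent cultivar Thorne (WT) at 24 DAP. The table names were followed because transgene reads go against the titles in other greenhouse groups. The groups titled WT at 30 and 33 DAP held transgene reads and those titled WD-1 and WD-2 at 24 DAP held almost none, and the meaning of T2 in days is not given in the sources used here. If the titles hold, line and embryo age changed together in this comparison and cannot be told apart.

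The series followed soybean that carries Arabidopsis genes for seed oil, in field seeds and greenhouse embryos, to see how oil and carbohydrate in the seed respond. R-T2 embryos came from a transgenic line with AtWRI1 and AtDGAT, and Wt-T2 embryos, titled as the untransformed parent, had almost no reads of either. Another greenhouse group, G-T2 (titled WD-1 at 27 DAP), also carried both and is used here where a value of R-T2 needs a second transgenic line beside it. Each library came from 1 embryo of a separate plant, peeled of seed coat and endosperm, and embryos of all groups grew in the same greenhouse regime. Of the transgenes' promoters, and of the insertion events behind the code R, nothing is given in the sources used here.

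WRI1 is a transcription factor that in Arabidopsis seeds switches on genes of late glycolysis and of fatty acid synthesis in the plastid. DGAT1 is the enzyme of the endoplasmic reticulum that adds the last acyl chain to diacylglycerol and so makes triacylglycerol, the storage oil. During seed filling the soybean embryo lays down protein and oil in its cotyledons, and takes up sugars that are stored, burned or passed on to these products.

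The 3 R-T2 libraries held 16.8, 20.03 and 19.8 M counts (1 M is 1000000), and the 3 Wt-T2 libraries 16.3, 19.3 and 17.9 M. A run of 98 identifiers, GLYMA_13G013600 to GLYMA_13G023300, took 68.6%, 66.2% and 47.1% of those counts in R-T2, against 28.9%, 8.46% and 9.03% in Wt-T2. The usable depth was therefore lower in R-T2: outside the run, R-T2 libraries kept 5.29, 6.77 and 10.4 M counts, against 11.6, 17.6 and 16.3 M in Wt-T2. For this reason levels are given as rescaled CPM, which are counts per 1000000 counts outside the run after TMM normalization. A gene with 0 counts could hold up to 3 counts, which is 0.287 to 0.567 CPM of the counts outside the run in R-T2 and 0.170 to 0.258 CPM in Wt-T2. These floors cover counting error only. They were computed before the TMM factors, so they are not on the scale of rescaled CPM. The factors were 0.815, 0.859 and 1.11 in R-T2 and 1.19, 1.28 and 1.31 in Wt-T2. The identifiers of the tables carry no names, and 0 matched the 59048 genes of the reference table. Genes are therefore given by identifier and without roles. For the same reason the lists of oil, storage protein and carbohydrate genes could not be counted, and the tissue label could not be checked against cotyledon or seed coat markers. In whole embryos, fewer cells of a type and less RNA per cell cannot be told apart.

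The transgenes were read in each R-T2 library and were near 0 in Wt-T2. AtWRI1 had 657, 1063 and 3049 counts in the R-T2 libraries, or 153, 183 and 262 rescaled CPM, against 1, 1 and 0 counts in Wt-T2. Its mean was 199 ± 56.4 rescaled CPM in R-T2 (SD, n = 3), and the ratio of pooled R-T2 to pooled Wt-T2 CPM was 6321, with an exact 95% counting interval of 1749 to 52212. AtDGAT had 103, 204 and 453 counts in R-T2, or 23.9, 35.1 and 38.9 rescaled CPM, and 0 counts in all 3 Wt-T2 libraries. It was at least 672-fold higher in R-T2, against a floor of 3 counts over the Wt-T2 group. The transgenes had a part in the choice of table names over titles, so these values describe the libraries and are no finding.

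R-T2 and G-T2 did not differ past the threshold in either transgene. AtWRI1 stood at 153, 183 and 262 rescaled CPM in R-T2 and 219, 261 and 159 in G-T2, and the 2 ranges overlapped. The log2 fold change of R-T2 over G-T2 was -0.09 for AtWRI1 (SE 0.58, adjusted p = 0.953 in edgeR's quasi-likelihood test) and 0.24 for AtDGAT (SE 0.49, adjusted p = 0.824). Per 1000000 of all counts, the run included, AtWRI1 came to 38.99, 53.1 and 154 in R-T2, against 274, 312 and 222 in G-T2. On that scale R-T2 lay below G-T2 in every library, so the order of the lines in AtWRI1 depends on whether the run is counted.

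**Figure D1:**
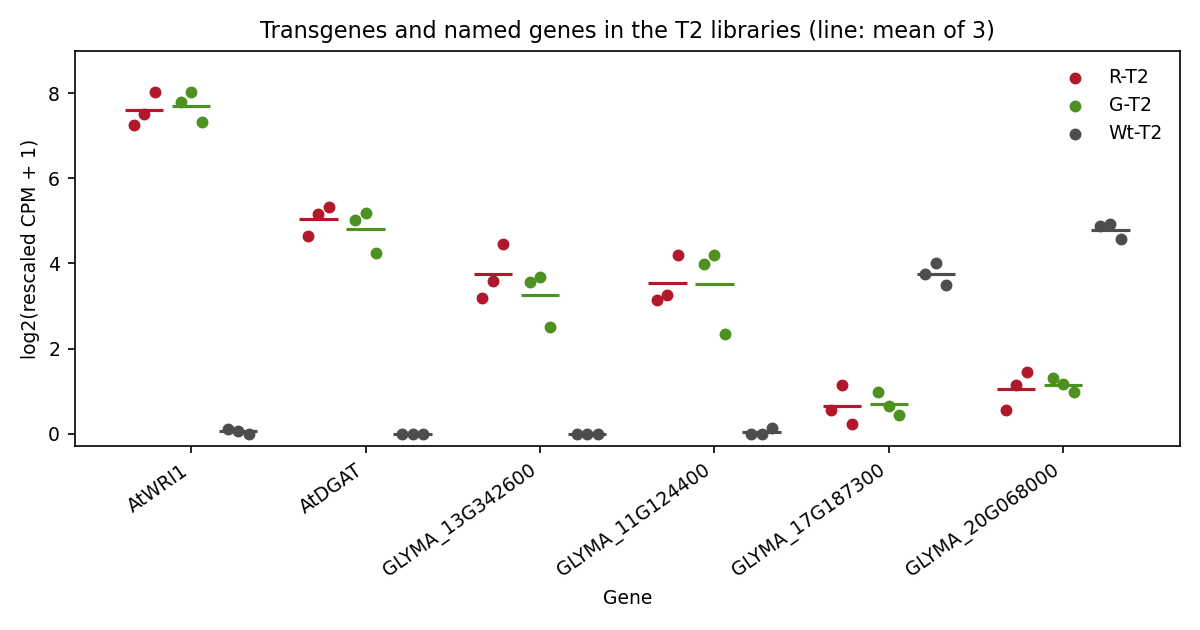
Levels in the 3 R-T2 (red), 3 G-T2 (green) and 3 Wt-T2 (grey) libraries, as log2 of rescaled CPM plus 1 on the vertical axis, for the transgenes and 4 soybean identifiers along the horizontal axis. Each point is a library and each line the mean of 3; both transgenic groups lie apart from Wt-T2 in all 6 genes and overlap each other.

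The run that took most R-T2 counts was higher along nearly its whole length. Of its 98 identifiers, 29 had no counts in the 6 libraries and 58 were tested, and 53 of the 58 were higher in R-T2 with an adjusted p under 0.05. No identifier of the run was lower, and 5 missed the threshold. Over all 34534 genes tested, 20.3% passed the threshold in either direction and 9.94% were higher. The median log2 fold change of the 58 was 3.64, with quartiles of 3.28 and 3.92, and it was 4.74 without Wt-T2 replicate 1, the Wt-T2 library with the largest share of the run. Without Wt-T2 replicate 2 or 3 the median was 3.23 and 3.28. The run was named for its counts in R libraries, so its rise is given as a description only.

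Within the run, 5 identifiers held 99.2% to 99.4% of its counts in the 6 libraries but not in the same proportions in both groups. GLYMA_13G021200 made up 58.2%, 58.9% and 59.3% of the run's counts in R-T2, against 57.3%, 56.8% and 57.1% in Wt-T2. GLYMA_13G013600 took a larger part, 8.22% to 9.46% in R-T2 and 6.63% to 7.48% in Wt-T2. GLYMA_13G020800 took a smaller one, 13.7% to 15.1% in R-T2 and 16.3% to 17.5% in Wt-T2, and so did GLYMA_13G023300, 10.8% to 10.97% in R-T2 and 12.2% to 12.8% in Wt-T2. For these 4 the groups did not overlap. For the fifth, GLYMA_13G015400, they did, with 5.77% to 6.58% in R-T2 and 5.42% to 6.19% in Wt-T2. The counts of GLYMA_13G021200 were 6729850, 7815330 and 5519050 in R-T2 and 2707890, 925455 and 923566 in Wt-T2. The third R-T2 library was the lowest of its group and the first Wt-T2 library the highest of its group, and the groups did not overlap. On the log2 scale GLYMA_13G021200 was 3.59 ± 0.95 higher in R-T2 (SE; adjusted p = 0.00668), and 4.74 higher without Wt-T2 replicate 1. Without that library the other 4 stood at 4.45 to 5.08. Without Wt-T2 replicate 2 or 3, GLYMA_13G021200 was 3.23 and 3.25 higher (adjusted p = 0.0438 and 0.0469), and the other 4 stood at 2.96 to 3.69. With all libraries, the log2 fold changes were 3.75 for GLYMA_13G015400, 3.32 for GLYMA_13G023300 and 3.31 for GLYMA_13G020800, with an adjusted p of 0.00329, 0.00818 and 0.00929. GLYMA_13G013600, the remaining one of the 5, averaged 177300 rescaled CPM in R-T2 and 11079 in Wt-T2 (adjusted p = 0.00189). Levels of the run are this large because its own counts are not in the total they are divided by. Calls for GLYMA_13G020800 and GLYMA_13G023300 rested on single Wt-T2 libraries: without Wt-T2 replicate 2 their adjusted p was 0.0556 and 0.0509, and without replicate 3 it was 0.0596 and 0.0547.

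The edges of the run are not the edges of the change. Of the 20 tested identifiers just before it, 18 were higher in R-T2, with a median log2 fold change of 3.32. Of the 20 just after it, 6 were higher, with a median of 0.74, and none of the 40 was lower. Of all genes tested, 9.94% were higher and 10.3% lower. The last tested identifier before the run, GLYMA_13G013500, averaged 16.6 rescaled CPM in R-T2 and 2.07 in Wt-T2. The first tested one after it, GLYMA_13G023600, averaged 24.5 rescaled CPM in R-T2 and 1.83 in Wt-T2. A further 4 identifiers outside the run, chosen after their counts were seen, were also among the most counted. GLYMA_13G012200, GLYMA_13G024100, GLYMA_U005800 and GLYMA_U007200 together took 41.8%, 37.9% and 14.4% of the counts outside the run in R-T2, against 5.92%, 1.30% and 1.72% in Wt-T2. Their log2 fold changes were 3.74, 3.88, 3.99 and 3.88 in the order named, close to the median of the run, and 4.78 to 5.17 without Wt-T2 replicate 1. Without Wt-T2 replicate 2 or 3 these fold changes were 3.27 to 3.69. GLYMA_13G012200 lost its call without Wt-T2 replicate 2 (adjusted p = 0.0528) or replicate 3 (adjusted p = 0.0547).

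The share of the run varied between libraries of the same group and was not high in all transgenic libraries. Over all times it covered 6.40% to 68.6% in the 12 R libraries (median 59.0%), 1.79% to 28.8% in the 12 G libraries and 3.27% to 28.9% in the 12 Wt libraries. G-T2 libraries, with 4.85% to 5.58%, lay below each Wt-T2 library. The lowest R library, with 6.40% at T5, lay within the range of Wt-T5 (3.52% to 6.89%). The next lowest, with 19.1% at T3, lay above the Wt-T3 libraries (7.01% to 12.7%). It lay within the range of all Wt libraries only through Wt-T2 replicate 1, with 28.9%.

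**Figure D2:**
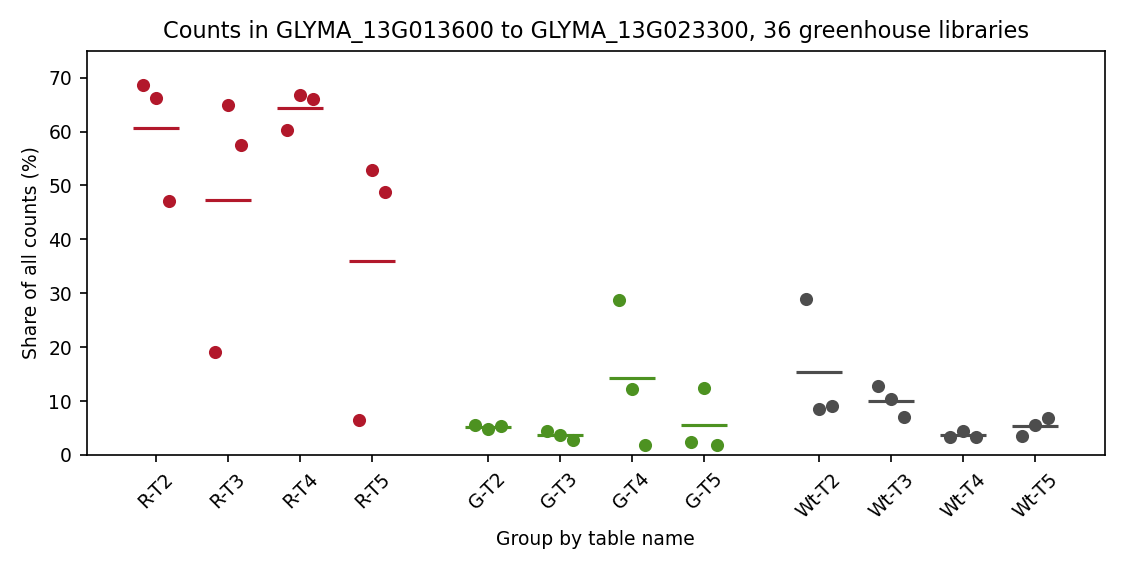
Share of all counts in GLYMA_13G013600 to GLYMA_13G023300, in percent on the vertical axis, for each of the 36 greenhouse libraries, grouped by line and time code on the horizontal axis; points are libraries and lines are means of 3. R-T2 lies at 47.1% to 68.6% and Wt-T2 at 8.46% to 28.9%, and single R libraries at T3 and T5 fall to 19.1% and 6.40%.

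Outside the run, R-T2 and Wt-T2 embryos differed in many genes, mostly by less than 2-fold. With the run, 6995 of 34534 genes passed the threshold (20.3%), of which 3433 were higher (9.94%) and 3562 lower (10.3%) in R-T2. The run accounted for 53 of these, so that 6942 stood outside it. More than 2-fold changes were seen in 1376 higher genes (3.98%) and 1322 lower genes (3.83%), and 4297 calls were under 2-fold. Large changes were mainly rises: 277 genes were over 8-fold higher and 63 over 8-fold lower in R-T2. Leaving out the run, the 4 further identifiers and the transgenes, 221 were over 8-fold higher. The lower depth of R-T2 outside the run limits how many large falls of low genes can be called. Its part in the excess of large rises was not tested. The median log2 fold change of all genes tested was -0.05, with quartiles of -0.42 and 0.31.

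The split of the calls depended on the scaling. Without a normalization factor the library sizes alone shifted log2 fold changes by -0.45 relative to TMM. The median of all genes tested was then -0.47 in place of -0.05. With that setting 1155 genes were higher and 10453 lower in R-T2, so that 9.95% of the calls were higher in place of 49.1%. The totals used there still held the 4 further identifiers, whose part in the shift was not tested. With the run counted in the scaling, 3131 were higher and 3826 lower. With the run and the 4 further identifiers left out of the scaling, 3700 were higher and 3238 lower. RLE factors gave 3698 higher and 3350 lower. The groups did not overlap, with all 3 R-T2 libraries above all 3 Wt-T2 libraries, in 6565 genes (19%), and lay the other way round in 8014 genes (23.2%). The number of calls was lower without single libraries: 4382 without R-T2 replicate 2 and 4595 without Wt-T2 replicate 3. Of these, 4226 and 4506 were among the 6995.

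**Figure D3:**
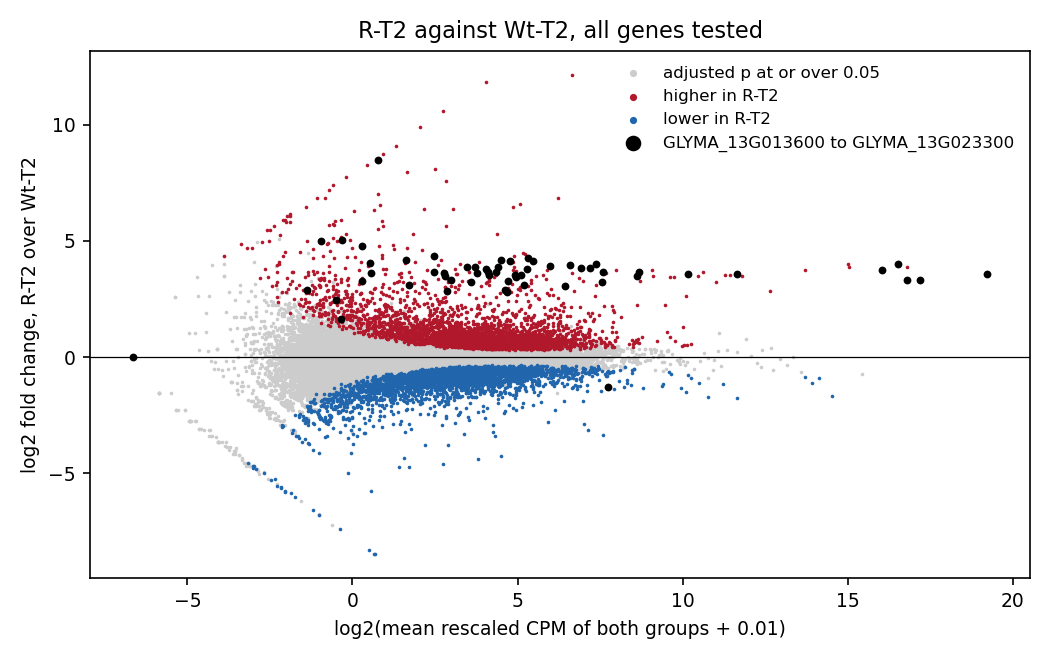
Log2 fold change of R-T2 over Wt-T2 on the vertical axis against the mean level of both groups, as log2 of rescaled CPM plus 0.01, on the horizontal axis; each point is 1 of 34534 genes tested, red where higher and blue where lower in R-T2 at an adjusted p under 0.05, and black for the run. The 3433 higher and 3562 lower genes spread over all levels, and the points farthest right are identifiers of the run and the 4 further identifiers.

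Genes that Wt embryos express most were more often lower than higher in R-T2. Genes outside the run were sorted by their mean level in the 9 Wt libraries at T3 to T5, which were not compared here. These libraries are still of the Wt line. Sorting genes as high in Wt can by itself favour lower values in another line, and its part was not tested. The order of the classes is therefore a description only. Among 66 genes over 1000 rescaled CPM, leaving out the 4 further identifiers named above, 2 were higher (3.03%) and 23 lower (34.8%) in R-T2. Their median log2 fold change was -0.34. Of all genes tested, 9.94% were higher and 10.3% lower. Leaving out any 1 of the 6 libraries gave 16 to 25 lower genes of the 66 and 0 to 1 higher. Under the 16 alternatives in all, 16 to 42 of the 66 were lower and 0 to 4 higher. In 672 genes between 100 and 1000 CPM, 9.82% were higher and 23.1% lower, with a median of -0.13. Between 10 and 100 CPM, 12.99% of 10476 genes were higher and 16.0% lower. Between 1 and 10 CPM, 8.40% of 16929 genes were higher and 9.10% lower. At or below 1 CPM the order was the other way round, with 8.30% of 6329 genes higher and 2.62% lower. At that level the lower depth of R-T2 limits what can be called lower, and its part in the difference was not tested. Against G-T2 the 66 genes showed 5 higher and 5 lower in R-T2 (7.58% each), with a median of -0.09. Of all genes tested, 3.6% were higher and 6.07% lower than in G-T2.

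The 100 most counted genes outside the run and the 4 further identifiers were taken in each library separately. They held 34.1%, 35.1% and 38.97% of the remaining counts in R-T2, and 42.6%, 41.3% and 40.6% in Wt-T2. R-T2 and Wt-T2 did not overlap, and the third R-T2 library was again nearest to Wt-T2. G-T2 libraries held 39.3%, 41.5% and 31.3%, from below the lowest R-T2 library to within the range of Wt-T2. The number of genes over 1 rescaled CPM was 27895, 28438 and 28466 in R-T2 and 28798, 28761 and 28757 in Wt-T2. Depth outside the run was lower in R-T2, and its part in these numbers was not tested.

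By the rule for named genes, the highest and lowest log2 fold changes were read from 3930 soybean genes past the threshold outside the run, the transgenes left out, with at least 10 rescaled CPM in the higher group and no overlap of the groups. GLYMA_13G342600 headed the 2140 higher genes. It had 8.13, 11.01 and 20.9 rescaled CPM in R-T2 and 0 counts in all 3 Wt-T2 libraries. It was at least 302-fold higher in R-T2, against a floor of 3 counts over the Wt-T2 group (adjusted p = 5.43e-10, edgeR's quasi-likelihood test). The highest of the 12 Wt libraries over all times reached 0.0637 CPM, while the 12 R libraries ran from 8.13 to 37.8 and the 12 G libraries from 4.65 to 30.3. The gene was read in every library of both transgenic lines and in 1 of 12 Wt libraries. The one G library without transgene counts, at T5, had 15.8 CPM of it.

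GLYMA_11G124400 had 7.89, 8.61 and 17.4 rescaled CPM in R-T2, and 0, 0 and 0.0940 in Wt-T2, from 2 counts in all, both in Wt-T2 replicate 3. The pooled ratio of R-T2 to Wt-T2 was 380, with an exact 95% counting interval of 104 to 3156 (adjusted p = 2.71e-09). In R it was higher at later codes, with means of 31.5 at T3, 24.3 at T4 and 58.9 at T5. The highest Wt library at any time had 0.191 CPM.

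Among the 1790 lower genes, GLYMA_17G187300 had the lowest log2 fold change. Its values were 0.464, 1.205 and 0.172 rescaled CPM in R-T2 and 12.5, 15.2 and 10.3 in Wt-T2, and the difference was -4.58 ± 0.62 on the log2 scale (SE; adjusted p = 1.96e-06). Single R-T2 libraries moved it, to -5.59 without replicate 2 and -3.83 without replicate 3. Wt itself was high at T2 only, since the Wt means were 1.87, 2.40 and 2.63 CPM at T3, T4 and T5. At those codes the R means of GLYMA_17G187300 were 1.05, 0.707 and 1.46 CPM, much nearer to Wt than at T2.

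GLYMA_20G068000 was low in R at all times. It had 0.464, 1.205 and 1.72 rescaled CPM in R-T2 and 28.3, 29.3 and 22.8 in Wt-T2, and the difference was -4.36 ± 0.63 on the log2 scale (SE; adjusted p = 6.24e-06). Over all times its 12 R libraries lay between 0.449 and 6.23 CPM and its 12 Wt libraries between 18.6 and 43.6. The 12 G libraries spanned 0.373 to 23.8 CPM, from below the lowest R library to values within the range of Wt. None of the 4 named genes differed between R-T2 and G-T2, with adjusted p values of 0.241, 0.996, 0.896 and 0.966 in the order described. The log2 fold changes of R-T2 over G-T2 were 0.63 (SE 0.33), -0.01 (SE 0.35), -0.26 (SE 0.85) and 0.10 (SE 0.82).

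Few genes were read in one group alone. With at least 3 counts in each library of a group and 0 in the other group, 8 genes were read in R-T2 alone, the highest of them AtDGAT with a mean of 32.6 rescaled CPM. In Wt-T2 alone 84 genes were read, with means of at most 3.17 CPM. The 2 counts are not comparable, since the depth outside the run was lower in R-T2.

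A second run on GLYMA_13G, chosen with earlier results of these data known and so described without a test, was about doubled in R-T2. From GLYMA_13G203300 to GLYMA_13G217700, 114 of 145 identifiers were tested, and 71 were higher (62.3%) and 0 lower in R-T2. Of all genes tested, 9.94% were higher and 10.3% lower. The median log2 fold change of the 114 was 0.91, with quartiles of 0.49 and 1.199. The summed level of the run was 4208, 4177 and 4261 rescaled CPM in R-T2, against 1812, 1813 and 1818 in Wt-T2. The range within R-T2 was 1.99% of its mean and that within Wt-T2 0.329%, while the ratio of the R-T2 to the Wt-T2 mean was 2.32. The 100 tested identifiers beside the run, 50 on each side, had a median of -0.11, with 9 higher and 19 lower. Without a normalization factor 46 of the 114 were higher and 1 was lower, with a median of 0.49. No window of 40 consecutive tested identifiers on the other chromosome prefixes had a median above 0.37 or below -0.43.

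The higher level held in R at the other times and differed between times in G. In the 9 R libraries at T3 to T5 the sum was 3887 to 5092 rescaled CPM, against 1804 to 2305 in the 9 Wt libraries. The run was chosen with earlier results of these data known, so these libraries are no independent check. G averaged 4000 ± 177 CPM at T2 and 4476 ± 246 at T4 (SD, n = 3 each). At T3 it averaged 2451 ± 88.7 CPM, between the levels of R and Wt, and each G-T3 library lay above all 12 Wt libraries. At T5 it averaged 2005 ± 231, against 1983 ± 101 in Wt-T5, and the 2 groups overlapped. Between R-T2 and G-T2 the 114 genes had a median log2 fold change of -0.13, with 2 higher (1.75%) and 6 lower (5.26%). These shares stand beside 3.6% and 6.07% of all genes tested.

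With both runs counted, 13.8% of the 2447 tested GLYMA_13G identifiers were higher in R-T2. Without them 9.41% of 2275 were higher and 10.4% lower, within the 8.23% to 10.8% higher and 9.37% to 11.7% lower of the other 19 prefixes. The identifiers are ordered by number here, and their places in a genome were not analysed.

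**Figure D4:**
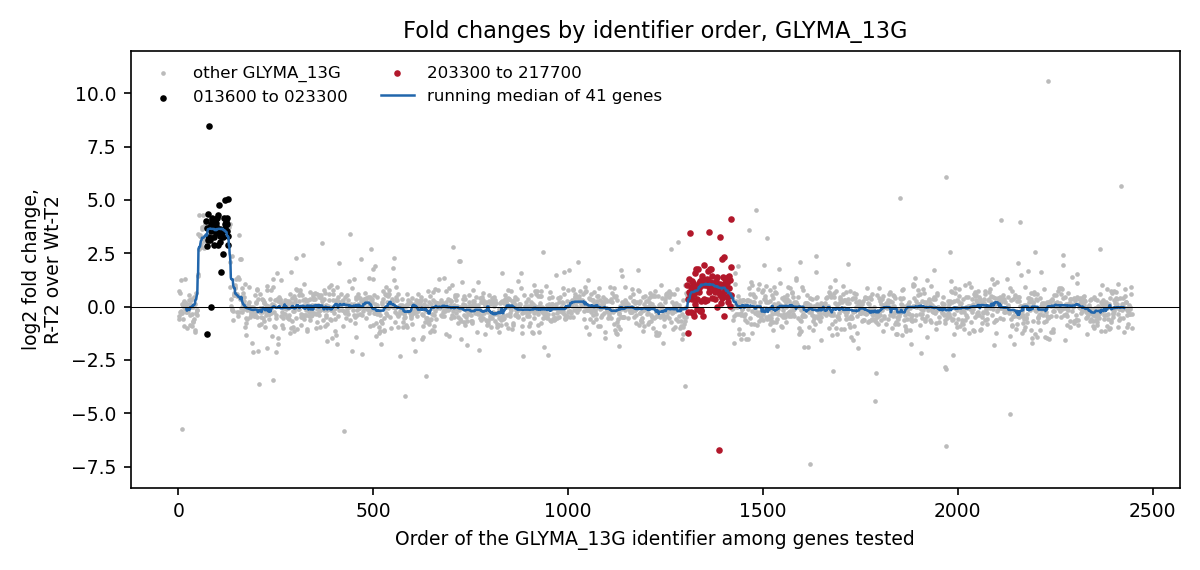
Log2 fold change of R-T2 over Wt-T2 on the vertical axis for the 2447 tested GLYMA_13G identifiers in the order of their numbers on the horizontal axis; points are genes and the blue line is a running median of 41. The line lies near 0 except at the first run (black, median 3.64) with its edges and at the second run (red, median 0.91).

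Of the 6942 calls outside the run, R-T2 replicate 3 was the nearest of the 3 R-T2 libraries to the Wt-T2 mean in 3838 (55.3%), and replicates 1 and 2 in 22.7% and 22.01%. The median distance from the Wt-T2 mean, as a difference of log2 of rescaled CPM plus 1, was 0.79 for replicate 1, 0.77 for replicate 2 and 0.62 for replicate 3. The order was not the same in all calls: among 221 genes over 8-fold higher, replicate 3 was the lowest R-T2 library in 38.9% and the highest in 42.5%, while in 2057 higher genes under 2-fold it was the lowest in 56.6%. Replicate 3 was also the library with the lowest share of the run, at 47.1%. In principal components of genes outside the run, component 1 held 35.9% of the variance, and R-T2 lay at 67.8, 67.5 and 45.7 on it, G-T2 at 20.5, 15.1 and 21.1, and Wt-T2 at -8.78, -14.2 and -18.3. R-T2 replicate 3 was the nearest to both other groups, without reaching them. The part of the run's share in this order was not tested.

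Gene levels in R at the other time codes lay on the same side of Wt. Those libraries were not in the contrast, but they shared its model and so entered the filter, the scaling and the estimate of spread. The genes over 2-fold outside the run, without the 4 further identifiers and the transgenes, were 1317 higher and 1322 lower. In all 9 R libraries at T3 to T5, the median of the 1317 was 1.03 to 1.40 above the mean of Wt at the same time code on the scale of log2 of CPM plus 1. The median of the 1322 was -0.94 to -0.63 on the same scale, below that mean in each. The R library at T5 with 6.40% of its counts in the run had 1.25 and -0.69, and its group mates with 52.9% and 48.8% had 1.40 and -0.86, and 1.18 and -0.85. Its lower genes lay nearer to Wt than those of both group mates, and its higher genes lay between theirs.

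**Figure D5:**
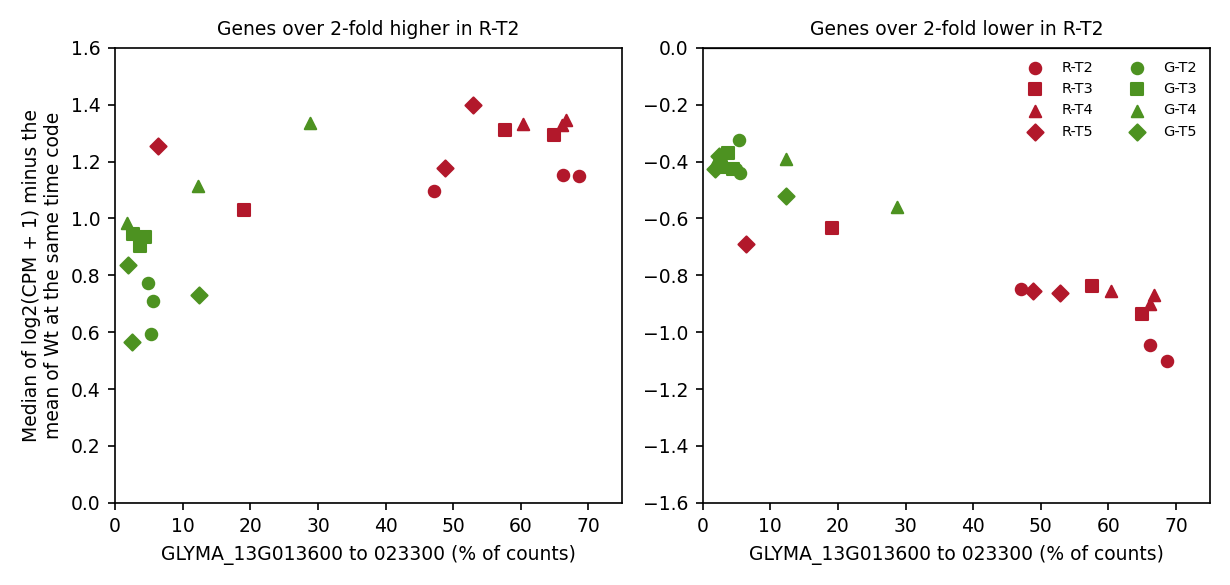
Median difference from the mean of Wt at the same time code, on the scale of log2 of rescaled CPM plus 1 (vertical axes), against the share of all counts in the run in percent (horizontal axes), for 12 R (red) and 12 G (green) libraries; shapes give the time code. The left panel shows the 1317 genes over 2-fold higher in R-T2 and the right panel the 1322 over 2-fold lower. R libraries lie farther from 0 than G libraries in the right panel, while the lines overlap in the left. The genes were chosen on R-T2 against Wt-T2, which can by itself favour larger distances in R. The order of the lines is therefore a description only.

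The values of G-T2 for these genes stand beside those of R-T2 as a description only, since the genes were chosen on R-T2 and both lines are set against the same Wt-T2 libraries. For the 1317 higher genes the library medians were 1.15, 1.15 and 1.10 in R-T2 and 0.71, 0.77 and 0.59 in G-T2. For the 1322 lower genes they were -1.10, -1.05 and -0.85 in R-T2 and -0.44, -0.43 and -0.32 in G-T2. In a direct test of the 2 lines, 3338 genes differed (9.67%), 1242 higher (3.6%) and 2096 lower (6.07%) in R-T2. The titles put R-T2 at 30 DAP and G-T2 at 27 DAP, while the table names give both the code T2. If the titles hold, line and age cannot be told apart here either. The direct comparison leaned on single libraries, with 1616 calls without R-T2 replicate 1, 1762 without R-T2 replicate 2, 2020 without G-T2 replicate 2 and 2219 without G-T2 replicate 3. Its split moved with the scaling, the samples in the fit and the depth. Of the calls 37.2% were higher in R-T2, against 48.5% with RLE factors, 49.5% in the 6 libraries alone, 49.4% there with the replicate block, 51.8% with DESeq2 and 52.5% at equal depth.

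Genes that change along the Wt time codes were set beside the comparison as well. Between Wt-T5 (titled WT at 27 DAP) and Wt-T3 (titled WD-1 at 24 DAP), 649 genes differed (1.88%), with 214 over 2-fold higher and 214 over 2-fold lower at T5 (0.62% each). Of the 214 that rise in Wt, 15 were higher and 27 lower in R-T2 than in Wt-T2, with a median log2 fold change of -0.34. These are 7.01% and 12.6% of the 214, against 9.94% and 10.3% of all genes tested. Of the 214 that fall in Wt, 32 were higher (14.95%) and 30 lower (14.02%), with a median of -0.09. Against G-T2, 0 of the rising genes were higher and 27 lower in R-T2 (12.6%), and 39 of the falling genes were higher (18.2%) and 20 lower (9.35%). Of all genes tested, 3.6% were higher and 6.07% lower than in G-T2.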

How the data were processed

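The authors deposited estimated counts per gene without normalization, 1 table per library, per the file headers. Per the submitters' processing notes, the tools were kallisto 0.43.1, FastQC 0.11.5, R 3.6.3 and sleuth 0.30.0, in roles that are not stated. No genome build, annotation or way of summing transcripts is given in the sources used here. Reads of near-identical copies may be divided between identifiers. Each table had 55900 rows: 55897 soybean genes, 2 transgenes and 1 without a name, left out here, with at most 4 counts.

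Estimated counts were rounded. One edgeR 4.0.16 model (R 4.3.3) held the 12 greenhouse groups of 3, with 34534 genes kept by filterByExpr and 24 residual degrees of freedom. Library totals and TMM factors left out GLYMA_13G013600 to GLYMA_13G023300, whose 98 identifiers were still tested. The contrasts were tested 2-sided by quasi-likelihood, and p-values were adjusted by Benjamini-Hochberg over all genes tested, with a threshold of 0.05. Adjusted p-values without a named tool come from it. The SE of a log2 fold change was derived from its F statistic. The script was tested on simulated data.

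Named genes were the 2 highest and 2 lowest log2 fold changes under the conditions given beside them, since identifiers without names limit how many are printed. The rule's largest changes in mean level were left unprinted likewise. All 22 gene lists, written as gene names, could not be applied. Members, lists and classes were chosen with earlier results of these data known. Replicate numbers pair nothing in the labels, and deviations of same-numbered R-T2 and Wt-T2 libraries had correlations of -0.02, 0.01 and -0.01. Alternatives were DESeq2 1.42.0, other scalings, no low-count filter, fewer libraries, a replicate block and, added after the data were seen, a scaling without 4 further identifiers and libraries thinned to equal depth. Summaries and plots were made in Python 3.11.15 (pandas 2.3.3, numpy 2.4.6, scipy 1.17.1, matplotlib 3.10.9).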

Additional observations from a re-analysis of the deposited data

Results flagged for a closer look

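R-T2 and G-T2, the transgenic lines at the same time code, differed in 3338 genes (9.67%) in a direct edgeR quasi-likelihood test, 1242 higher and 2096 lower in R-T2. The result is singled out because both lines carry AtWRI1 and AtDGAT and share the time code. The Wt-T2 libraries were not in this contrast and entered only the shared fit. The run GLYMA_13G013600 to GLYMA_13G023300 accounted for 55 of the higher genes, and 1187 higher and 2096 lower genes stood outside it. The share of the run was 68.6%, 66.2% and 47.1% in R-T2 and 5.58%, 4.85% and 5.37% in G-T2, and its part in the 3338 was not tested.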

How the results depend on the processing

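Between R-T2 and Wt-T2 the count of 6995 stayed within 1.5 times under DESeq2 (6843), RLE factors (7048), the run kept in the scaling (6957), no low-count filter (6363), the 6 libraries alone (8822), no libraries under 10 M counts (7358), the 4 further identifiers also left out of the scaling (6938) and equal depth (6857). Without a normalization factor it was 11608 (1155 higher, 10453 lower), and for R-T2 against G-T2 15556 (518 higher, 15038 lower). With 1 library left out, R-T2 against Wt-T2 gave 4382 to 6340 calls (2318 to 3019 higher, 2011 to 3321 lower), with 2347, 2011 and 2277 lower without R-T2 replicate 1, R-T2 replicate 2 and Wt-T2 replicate 3. R-T2 against G-T2 gave 1616 to 3349 (670 to 1220 higher, 946 to 2129 lower), and in the 6 libraries alone 1949 higher. Same-numbered libraries share only a number: with the replicate block, R-T2 against Wt-T2 gave 7948 calls and R-T2 against G-T2 2516, 1272 of them lower. The causes were not tested. Of the values of single genes and runs, 467 of 492 kept their direction, side of the threshold or size, 19 small counts or counts without a factor moved, and 6 calls were lost, as given beside them. The depth of R-T2 outside the run limits calls of low genes.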
